A study of Oryctolagus cuniculus with 6 samples.

Results

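UMOD, CUBN, LRP2, PDZK1, HNF4A, PAX8, XPNPEP2 and MIOX are genes by which cells of the kidney tubule are usually recognised, and their transcripts were followed here in rabbit conjunctiva with dry eye disease (DED). The members were chosen by name, with the differences between DED and naive conjunctiva on these same arrays already known, so their values are a description and no test. Of the 8 genes, 7 had a probe set listed under that symbol alone, 1 each, among 15587 genes with such a probe set and 23364 probe sets in all. MIOX had none and has no value here.

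Tissue came from adult male Dutch Belted rabbits whose nictitating membranes had been removed in both groups. In the DED group the periorbital lacrimal glands had received concanavalin A (ConA), a lectin and T cell mitogen, on days 1, 8 and 14, and full-thickness conjunctiva with Tenon's capsule was taken on day 18. The naive group had healthy eyes and no disease model. Each group has 3 arrays (Affymetrix Rabbit Gene 1.0 ST), and each array carries RNA pooled from several animals, for which the sources give either 2 or 3. The lectin was given to the gland and not to the conjunctiva, and the pools hide the spread between animals, which limits what the arrays can show. With 3 arrays a group, an exact permutation test of a single value could not reach a two-sided p under 0.1. All values are log2 after Robust Multi-chip Analysis (RMA), so a difference of 1 is a doubling. The table carries no detection call, levels of different probe sets cannot be ranked against each other, and the probe sequences were not used, so whether a probe set also binds other transcripts was not examined.

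The first part of the tubule, the proximal tubule, takes filtered proteins back by endocytosis and recovers glucose, amino acids, phosphate and organic anions through transporters of its brush border. CUBN (cubilin) and LRP2 (megalin) are the large receptors that bind those proteins, and PDZK1 is a scaffold that holds transporters at the membrane. XPNPEP2 is a membrane-bound aminopeptidase that cleaves bradykinin, and MIOX begins the breakdown of inositol. HNF4A is a transcription factor of proximal tubule, liver and gut, and PAX8 one of kidney and thyroid. UMOD (uromodulin) is made by the next segment, the thick ascending limb, and is the most abundant protein of normal urine.

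Of the receptors, CUBN stood at 6.19, 6.09 and 6.16 on the DED arrays, against 5.18, 4.80 and 4.87 on the naive arrays. The groups did not overlap, and the DED arrays lay close together while naive replicate 1 was higher than the other naive arrays. The difference was 1.20 with a standard error (SE) of 0.107 and a 95% confidence interval of 0.94 to 1.45, or 2.29-fold, the highest of the 7 members.

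LRP2, which works with CUBN at the same membrane, stood at 8.18, 8.19 and 8.14 in DED and at 7.19, 7.14 and 7.11 in naive conjunctiva. All DED arrays lay above all naive arrays by at least 0.95. The difference was 1.02 (SE 0.055, 95% confidence interval 0.89 to 1.16), or 2.03-fold, and this interval overlaps that of CUBN.

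UMOD had the smallest SE of the 7 members. Its values were 11.58, 11.54 and 11.57 in DED and 10.69, 10.72 and 10.69 in naive conjunctiva, with standard deviations (SD) of 0.021 in DED and 0.017 in naive (n = 3 arrays each). The lowest DED array lay 0.82 above the highest naive array. The difference was 0.86 (SE 0.052, 95% confidence interval 0.74 to 0.99), or 1.82-fold, and 0.822% of all probe sets had a difference at least as high.

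PDZK1 had nearly the same difference as UMOD, 0.89 (SE 0.113, 95% confidence interval 0.61 to 1.16). It stood at 6.99, 6.96 and 7.00 in DED and at 5.90, 6.05 and 6.34 in naive conjunctiva. The naive arrays were spread over more than the DED arrays (SD 0.021 in DED and 0.224 in naive), and naive replicate 3 came nearest to the DED group, 0.62 below its lowest array.

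XPNPEP2 was 1.41-fold higher in DED. Its values were 6.92, 6.96 and 6.89 in DED and 6.42, 6.38 and 6.47 in naive conjunctiva, with no overlap and an SD of at most 0.045. The difference of 0.50 (SE 0.057, 95% confidence interval 0.36 to 0.64) lay below the intervals of UMOD, CUBN and LRP2.

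The transcription factors had the smallest differences. HNF4A stood at 6.18, 6.42 and 6.12 in DED and at 5.77, 6.00 and 5.69 in naive conjunctiva. The groups did not overlap, but the gap between the nearest arrays was 0.12, less than the SD within either group (0.159 in DED and 0.161 in naive). The difference was 0.42 (SE 0.114, 95% confidence interval 0.15 to 0.69), and replicate 2 was the highest array of each group.

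PAX8 stood at 6.21, 6.19 and 6.12 in DED and at 6.14, 6.20 and 6.00 in naive conjunctiva. The groups overlapped, and the difference of 0.06 had a 95% confidence interval of -0.11 to 0.23. The differences of the other 6 members all lie above that interval.

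**Figure D1:**
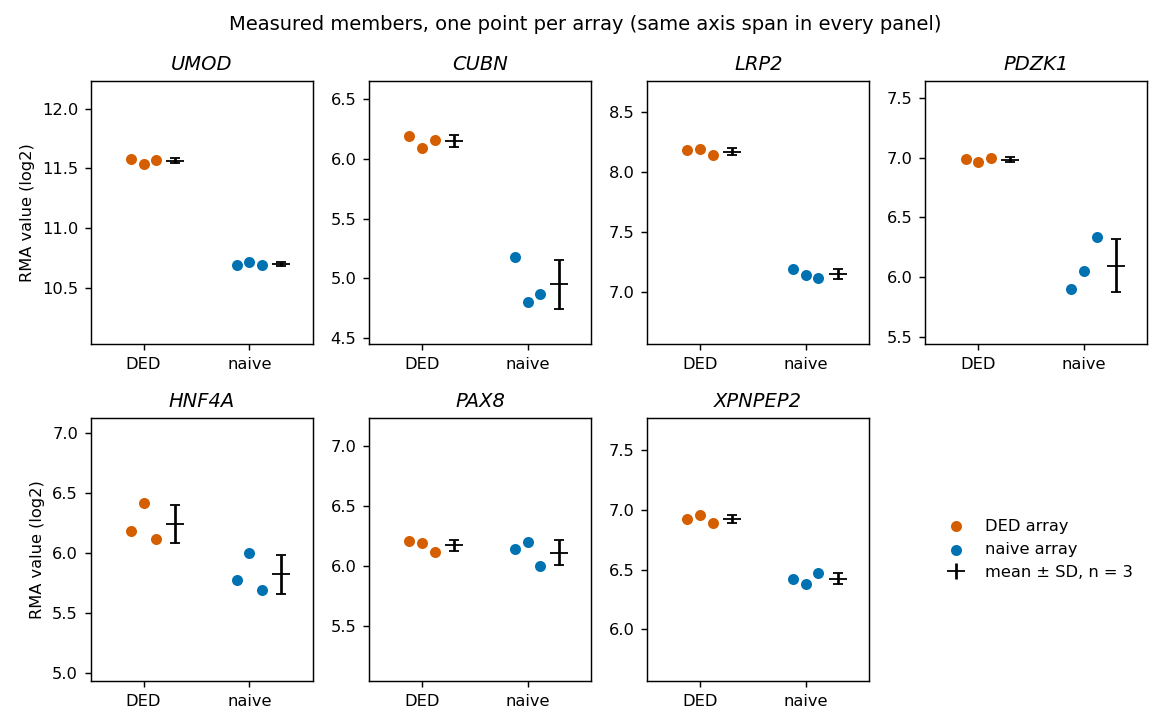
RMA values (log2) of the 7 measured members, 1 panel each with the same axis span, 1 point per array, DED on the left and naive on the right, with the mean ± SD (n = 3) beside the points. In 6 panels every DED point lies above every naive point, and in the panel of PAX8 the groups overlap between 6.12 and 6.20.

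In the limma fit over all probe sets (Benjamini-Hochberg adjustment, adjusted p under 0.05 as threshold), 5 of the 7 members, UMOD, CUBN, LRP2, PDZK1 and XPNPEP2, were called higher in DED and none lower. Over all 23364 probe sets 4.41% were called higher and 2.69% lower. Every DED array lay above every naive array in 6 members and in 13.4% of all probe sets. The members were picked on this contrast, so nothing is read from these counts. HNF4A and PAX8 were not called. With 1 array left out, whichever it was, 5 members were called, and in all alternatives the count was 5 or 6.

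Most measured transporters of the proximal tubule were higher in DED. Of 24 measured genes of this list, 16 were called higher in DED (66.7%, against 4.41% of all probe sets). Another 1 was lower (4.17%, against 2.69%) and 7 were not called. The median difference was 0.63, where the median over all probe sets was -0.01. The list was chosen with earlier results known, and solute carriers are among the groups that the study itself formed from genes higher on these arrays, so the direction of the list has no independent support here.

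SLC13A1, which takes up sulfate, had the highest difference of the list. It stood at 7.17, 7.10 and 7.12 in DED and at 6.00, 5.92 and 5.79 in naive conjunctiva, a difference of 1.23 (SE 0.072; limma, adjusted p = 0.000423). SLC5A12, a lactate transporter, stood at 6.98, 6.97 and 6.98 in DED and at 5.94, 5.96 and 6.02 in naive conjunctiva, a difference of 1.00 (SE 0.054, adjusted p = 0.000336). The DED values of both genes were nearly equal from array to array. SLC3A1, a subunit of the cystine transporter, had a difference of 0.97 (SE 0.080, adjusted p = 0.0014), and SLC17A1, a phosphate and organic anion transporter, had 0.94 (SE 0.103, adjusted p = 0.00389).

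Further transporters among the 16, named after their values were seen, cover other substrates. SLC5A2 and SLC5A1, the sodium-glucose cotransporters, had differences of 0.73 and 0.64 (adjusted p = 0.00215 and 0.00651 from limma). SLC34A1, the sodium-phosphate cotransporter, had 0.59 (adjusted p = 0.00257). The organic anion transporters SLC22A6 and SLC22A8 had 0.63 and 0.60 (adjusted p = 0.00244 and 0.00717).

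SLC5A8, a sodium-coupled carrier of lactate and short-chain fatty acids, was the transporter called lower. It stood at 7.07, 7.11 and 6.81 in DED and at 7.86, 7.88 and 7.96 in naive conjunctiva, a difference of -0.90 (SE 0.093, adjusted p = 0.00297 from limma). SLC47A1, which exports organic cations into the urine, was not called but also had every DED array below every naive array, at 4.89, 4.91 and 4.42 in DED and 5.26, 5.17 and 5.24 in naive conjunctiva (-0.48, adjusted p = 0.0954). AQP1, the water channel of the proximal tubule and of capillaries, and SLC4A4, which returns bicarbonate to the blood, were not called (0.03 and -0.04). These 3 genes were named after their values were seen. The number of transporters called higher was 13 to 16 with 1 array left out.

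**Figure D2:**
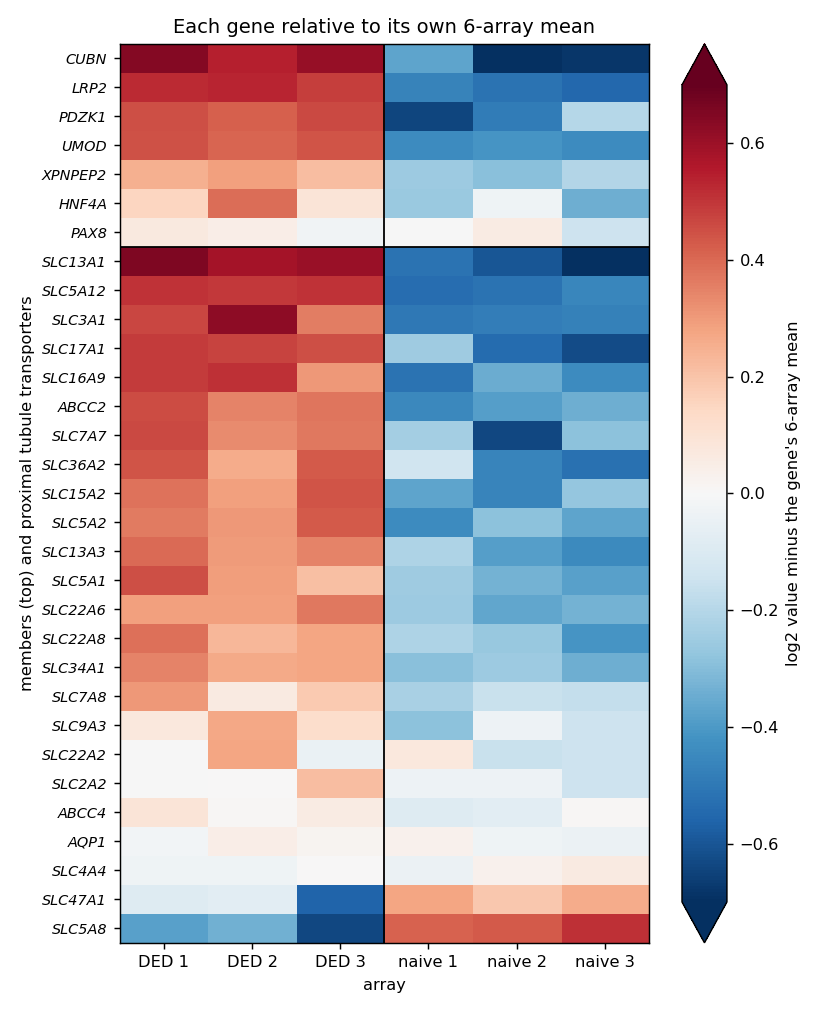
Log2 value of each gene minus its own mean over the 6 arrays, for the 7 members (above the line) and the 24 measured proximal tubule transporters (below it), each ordered by difference, with the DED arrays in the left 3 columns and the naive arrays in the right 3. The upper rows of both blocks are red on all DED arrays and blue on all naive arrays, PAX8, AQP1 and SLC4A4 are pale throughout, and SLC5A8 and SLC47A1 are reversed.

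Enzymes of the brush border and of proximal tubule metabolism had lower median differences than the transporters. These lists, too, were chosen with earlier results of these data known. Of 11 measured brush border enzymes, 4 were called higher (36.4%, against 4.41% of all probe sets) and none lower. The median difference was 0.27, and 10 of the 11 had a positive difference. The eleventh, ACE (angiotensin-converting enzyme, also of endothelium), named after its values were seen, stood at 6.44, 6.37 and 6.25 in DED and 6.82, 6.80 and 6.51 in naive conjunctiva (-0.36, adjusted p = 0.1 from limma). It was called lower with an intensity trend, without the 30% dimmest probe sets and without naive replicate 3 (adjusted p = 0.0358 to 0.048). ENPEP and DPP4, peptidases that also occur outside the kidney (DPP4 on T cells), had differences of 0.53 and 0.50 (adjusted p = 0.00681 and 0.00323 from limma). MME (neprilysin, also on neutrophils) and GGT1 (gamma-glutamyltransferase) had 0.37 and 0.34 (adjusted p = 0.0278 and 0.0311). The calls of MME and GGT1 were lost without any 1 of DED replicate 1 or 2 or naive replicate 1, 2 or 3, and that of MME also without DED replicate 3 (adjusted p = 0.0536 to 0.101), which leaves 2 or 3 genes called. XPNPEP1, the cytosolic relative of XPNPEP2, had a difference of 0.21 and was not called (adjusted p = 0.124).

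Of 17 measured metabolic enzymes, 6 were called higher (35.3%, against 4.41% of all probe sets) and none lower, with a median of 0.32. HAO2, a peroxisomal hydroxyacid oxidase, stood at 6.80, 6.84 and 6.73 in DED and 6.11, 5.88 and 6.13 in naive conjunctiva (difference 0.75, adjusted p = 0.00422 from limma). HPD, of tyrosine breakdown, and GATM, of creatine synthesis, had differences of 0.68 and 0.62 (adjusted p = 0.00557 and 0.00561). DPYS, of pyrimidine breakdown, had 0.51 (adjusted p = 0.00896). PCK1, of gluconeogenesis, had 0.48 (adjusted p = 0.0374) and was not called without DED replicate 1, 2 or 3 or naive replicate 3 (adjusted p = 0.0812 to 0.112). The number called was 4 without any 1 of those 4 arrays.

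The partners of CUBN and LRP2 in endocytosis form a short list. Of its 6 measured genes, 1 was called higher (16.7%, against 4.41% of all probe sets) and none lower. In 2 of the 6 every DED array lay above every naive array, against 13.4% of all probe sets. The gene called was CTSB, a lysosomal protease of many cells including macrophages (difference 0.33, adjusted p = 0.0136 from limma). That call was lost whichever array was left out but naive replicate 3 (adjusted p = 0.0513 to 0.0584). DAB2, the adaptor that draws LRP2 into coated pits, and CLCN5, a chloride-proton exchanger of the endosome, had differences of -0.01 and -0.00 (adjusted p = 0.933 and 1). CLCN5 was named after its values were seen. RAB11A, of receptor recycling, had 0.22 (adjusted p = 0.0876). AMN, the membrane anchor of CUBN, and LRPAP1, the chaperone of LRP2, had no probe set under their own symbol and have no value here.

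UMOD is made in a later segment than the proximal tubule, so genes of the later segments were read too. Of 33 measured genes of thick ascending limb, distal convoluted tubule and collecting duct, 4 were higher (12.1%, against 4.41% of all probe sets) and 2 were lower (6.06%, against 2.69%), with a median of 0.01. In the 4 lists of proximal tubule genes (endocytosis, brush border, transport and metabolism) 27 of 58 were higher (46.6%) and 1 was lower, with a median of 0.33. All these lists were chosen with earlier results of these data known, and 16 of the 27 are the transporters described above. The difference between these shares was not tested.

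SLC12A1, the sodium-potassium-chloride cotransporter that marks the thick ascending limb together with UMOD, was the gene of its list that was called. It stood at 6.90, 6.88 and 6.85 in DED and at 5.79, 5.77 and 5.85 in naive conjunctiva (difference 1.07, SE 0.055; limma, adjusted p = 0.000284). As with UMOD, the groups were far apart and each was narrow. The other 10 measured genes of that list were not called, among them CLDN16, a tight junction protein (0.39, adjusted p = 0.081), and HPN, the protease that releases UMOD in the kidney (0.08).

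CALB1, a calcium-binding protein of distal tubule and neurons, had a difference of 1.09 (SE 0.125, adjusted p = 0.00446 from limma). STK39, a kinase that acts on SLC12A1 and its relatives, was lower by the fit (-0.30, adjusted p = 0.0418), a call that was lost whichever of the 6 arrays was left out (adjusted p = 0.0598 to 0.127). Of the collecting duct list, SLC26A4, an anion exchanger also found in airway and inner ear, had 0.71 (adjusted p = 0.00345), and ATP6V0D2, a proton pump subunit also of osteoclasts and macrophages, had 0.60 (adjusted p = 0.00375). AQP4, a water channel, was lower, at 7.00, 6.94 and 6.90 in DED and 7.66, 7.67 and 7.75 in naive conjunctiva (difference -0.75, adjusted p = 0.00128).

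Other transcription factors of the kidney were read beside HNF4A and PAX8. Of 14 measured genes of that list, 1 was called higher (7.14%, against 4.41% of all probe sets) and none lower, and the median was -0.03. It was TFEC, which is also a factor of macrophages (difference 1.14, SE 0.125, adjusted p = 0.00392 from limma). HNF4G, the closest relative of HNF4A, had 0.11, and SIM1 had 0.30 (adjusted p = 0.42). PAX2 has no value here. Of 9 measured podocyte genes, 1 was called higher (11.1%) and none lower. That was PTPRO, a receptor phosphatase also of macrophages (0.58, adjusted p = 0.043 from limma). Its call was lost whichever array was left out but naive replicate 2 (adjusted p = 0.0643 to 0.128), and WT1 had 0.27 (adjusted p = 0.43).

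The step that MIOX catalyses lies in inositol and glucuronate metabolism. Of 9 measured genes around that step, UGDH, which makes UDP-glucuronate, was called higher (0.30, adjusted p = 0.0289 from limma) and IMPA2, an inositol monophosphatase, lower (-0.34, adjusted p = 0.0398). UGDH lost its call whichever of the 6 arrays was left out (adjusted p = 0.07 to 0.102), and IMPA2 whichever was left out but DED replicate 3 (adjusted p = 0.104 to 0.124). Higher and lower calls were each 11.1% of the list, against 4.41% and 2.69% of all probe sets. The median of the list was 0.03. Among 6 measured proteins that share the zona pellucida domain of UMOD, TGFBR3, a co-receptor of TGF-beta, was lower (-0.43, adjusted p = 0.0072), and UMODL1, named for its likeness to UMOD, had 0.20 (adjusted p = 0.276).

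**Figure D3:**
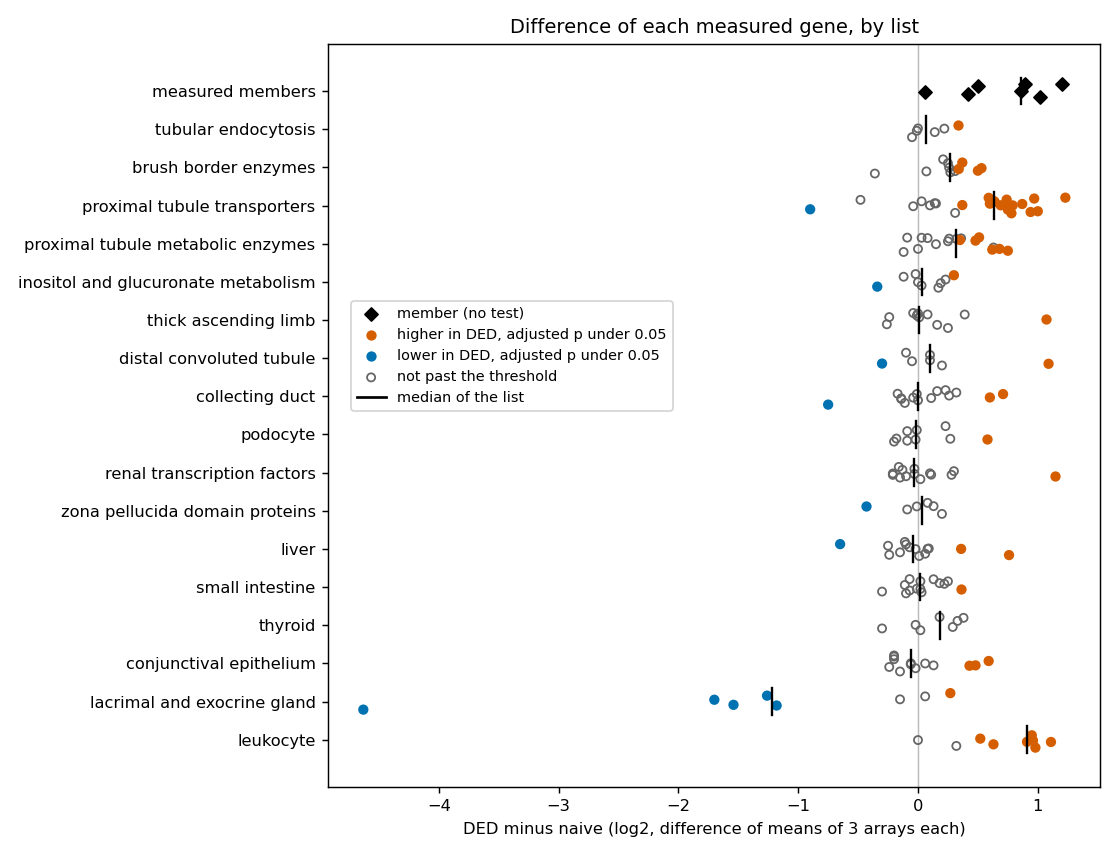
Difference between DED and naive conjunctiva (log2) of each measured gene, 1 row per list, with black diamonds for the members, filled circles for genes past an adjusted p under 0.05 (limma), open circles for the others and a vertical line at each median. The proximal tubule transporters (median 0.63), brush border enzymes (0.27), metabolic enzymes (0.32) and leukocyte genes (0.91) have medians to the right of 0. The gland genes (median -1.22) have theirs to the left. Differences above 0 number 21 of 24 transporters, 10 of 11 brush border enzymes, 15 of 17 metabolic enzymes, 8 of 9 leukocyte genes and 2 of 8 gland genes. Most lists of later tubule segments and of other organs centre near 0.

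CUBN, PDZK1 and HNF4A are also genes of the small intestine, HNF4A of the liver, and LRP2 and PAX8 of the thyroid, so markers of these organs were read on the same arrays. Of 14 measured intestinal genes, 1 was called higher (7.14%, against 4.41% of all probe sets) and none lower, and the list had a median of 0.02. It was APOB, a lipoprotein also made by liver (0.36, adjusted p = 0.0147 from limma). RBP2, a retinol-binding protein of enterocytes, had -0.30 (adjusted p = 0.3). Of 14 measured liver genes, APOB and FGB, a fibrinogen chain (0.76, adjusted p = 0.0135), were higher, and TF, transferrin, was lower (-0.65, adjusted p = 0.00125). These are 14.3% higher and 7.14% lower, against 4.41% and 2.69% of all probe sets. APOB was not called without DED replicate 1 or 3 or naive replicate 1 or 2, and FGB not without DED replicate 3 or naive replicate 2 (adjusted p = 0.052 to 0.0634). Of 7 measured thyroid genes 0 were called by limma, with a median of 0.18, DIO1, a deiodinase, at 0.38 (adjusted p = 0.0958) and DUOX2, an oxidase also of mucosal epithelia, at 0.33 (adjusted p = 0.104).

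Marker transcripts of leukocytes and glands also differed between the groups, and in such bulk tissue fewer cells of a type and less RNA per cell cannot be told apart. Of 9 measured leukocyte genes 7 were called higher (77.8%, against 4.41% of all probe sets) and none lower. The mean of the list ran from 7.50 to 7.58 on the DED arrays, against 6.80 to 6.86 on the naive arrays. The genes not called, CD3E and CD2, both of T cells and named after their values were seen, had -0.00 and 0.32 (adjusted p = 0.989 and 0.237 from limma). The paper lists CD3D and CD3G, also of T cells, as higher in DED. PTPRC (CD45) and CD48 had differences of 1.11 and 0.98 (adjusted p = 0.000336 and 0.0015 from limma), of the size seen for LRP2. CD53, ITGB2 and CD68, all of leukocytes, had 0.95, 0.96 and 0.91 (adjusted p = 0.000596, 0.000769 and 0.000398).

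Of 8 measured genes of lacrimal and other exocrine glands 5 were called lower (62.5%, against 2.69% of all probe sets) and 1 higher (12.5%, against 4.41%). The list means were 7.13 to 7.25 in DED and 8.41 to 8.50 in naive conjunctiva. PIP, a secreted gland protein, had a difference of -4.63, and ELAPOR1, LTF, KRT18 and LCN2 had -1.70 to -1.18. LYZ, which leukocytes also make and which was named after its values were seen, was the 1 gene called higher, at 0.27 (adjusted p = 0.039 from limma), a call lost whichever of the 6 arrays was left out (adjusted p = 0.0775 to 0.125). LYZ has 2 probe sets, of which the one with the highest mean was read. The paper lists lysozyme C as lower in DED on these arrays, so the direction of LYZ is not settled. The part of leukocytes and of gland tissue in the values of the members was not tested.

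The epithelial markers of the conjunctiva KRT5, KRT4 and MUC4 had differences of 0.59, 0.43 and 0.48 (adjusted p = 0.00496, 0.0145 and 0.00409 from limma). Of 13 measured epithelial genes these 3 were called higher (23.1%, against 4.41% of all probe sets) and none lower. The median difference was -0.06, and the mean of the list was 9.90 to 9.91 in DED and 9.86 to 9.87 in naive conjunctiva. In 4 of the 13 every DED array lay above every naive array, against 13.4% of all probe sets. In 6 of the 13 every DED array lay below every naive array, against 14.5% of all probe sets. Among them, named after their values were seen, were the epithelial transcription factors KLF5 (-0.24, adjusted p = 0.0676), EHF (-0.20, adjusted p = 0.0869), KLF4 (-0.20, adjusted p = 0.186) and PAX6 (-0.15, adjusted p = 0.188), and the adhesion molecule EPCAM (-0.20, adjusted p = 0.0971). With an intensity trend 4 epithelial genes were called lower, and 3 without the 30% dimmest probe sets or with quantile normalization once more. KRT4 was not called without DED replicate 1 or 2 or naive replicate 1 or 2 (adjusted p = 0.0576 to 0.062). KRT13 and MUC16, also usual markers of this epithelium, had no probe set under their own symbol alone and have no value here. The paper lists MUC16 as lower in DED on these arrays.

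For each member, the genes whose profile over the 6 arrays was nearest were found by the root mean square distance between values centred on each gene's own mean. Nearest to UMOD were DUOXA2, which helps the dual oxidase DUOX2 to mature (distance 0.018), DPEP1, a renal dipeptidase (0.027), and CD68, a macrophage protein (0.030). LRP2 was followed most closely by LOC100009097 (0.039), AZGP1, a secreted glycoprotein (0.040), and SLC12A1 (0.050). CUBN lay nearest to the leukocyte integrin ITGAM (0.085), the proliferation marker MKI67 (0.089) and SLC13A1 (0.091).

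PDZK1 was followed by CYP24A1, which inactivates vitamin D (0.053), LOC100349085 (0.077) and CD36, a fatty acid receptor (0.095). XPNPEP2 was followed by MFSD4A (0.021), SYK, a kinase of immune receptors (0.029), and MEF2C, a transcription factor (0.031). HNF4A was nearest to KIFC1, a mitotic kinesin (0.050), PTH1R, the parathyroid hormone receptor (0.060), and E4F1 (0.063), and PAX8 to SEZ6L2 (0.017), FAM219B (0.023) and ATP6V0A1 (0.023). A profile over 3 against 3 arrays is set mostly by the difference between the groups, so genes of kidney, leukocytes and dividing cells stand side by side in it.

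The genes beside the members in the genome were also read. For each member the 2 nearest measured protein-coding genes on each side were read, in the gene order of the RefSeq assembly mOryCun1.1, a comparison added after the members' values had been seen. Of these 28 neighbours, 1 was called higher by limma, where 4.41% of all probe sets were, and none lower, with a median difference of 0.07 and a range of -0.24 to 0.65. Unlike the members, the neighbours were not picked on this contrast, so higher values of the members beside them are no result. Beside UMOD, PDILT and ACSM5 had differences of -0.18 and 0.13. CUBN lies between RSU1 and TRDMT1, which had 0.05 and 0.10, and HNF4A between TTPAL and R3HDML, at -0.16 and -0.03. The neighbour that was called, ABCB11, the bile salt pump of the liver, lies beyond DHRS9 from LRP2 and had 0.65 (SE 0.093, adjusted p = 0.0104), against 0.17 for DHRS9 itself.

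**Figure D4:**
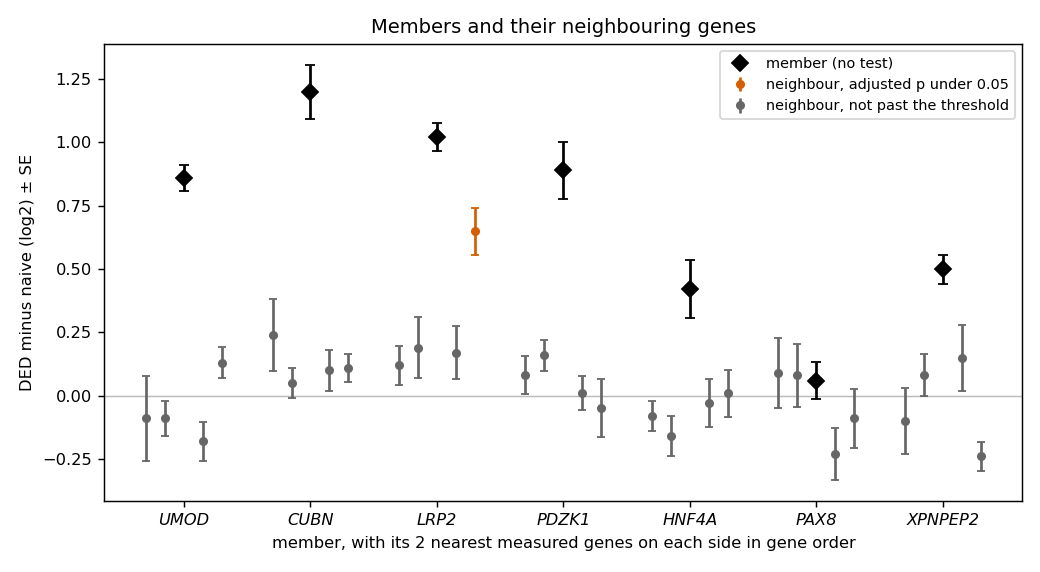
Difference between DED and naive conjunctiva (log2, ± SE) of each member (black diamond) and of its 2 nearest measured genes on each side (circles, orange where the adjusted p was under 0.05 in limma), placed by gene order and not by distance. Apart from ABCB11 near LRP2 at 0.65, the neighbours lie between -0.24 and 0.24, and 5 members lie at 0.50 or higher. The members were picked on this contrast and the neighbours by gene order, so nothing is read from the distance between them.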

How the data were processed

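RNA of full-thickness conjunctiva was measured on 6 arrays, 3 DED and 3 naive, each a pool of animals. The authors made the deposited log2 values with Robust Multi-chip Analysis in the Transcriptome Analysis Console (version not given in the sources used here), which corrects background, normalizes by quantiles and summarises probes, so a shift of all transcripts could not be seen. Array medians were 6.18 to 6.20. Their number limits the precision; depth does not apply. Differences were fitted with limma 3.58.1 (R 4.3.3; lmFit, eBayes, Benjamini-Hochberg over 23364 probe sets), tables and plots with Python 3.11.15, pandas 2.3.3 and matplotlib 3.10.9. The platform annotation gives 15795 probe sets 1 symbol, 397 several and 7172 none; for genes with several probe sets the one with the highest mean was used. Members, the 17 gene lists and tests were chosen with earlier results of these data known. Named were all members and, per list, up to 5 called genes with the largest differences, or the top 2 where fewer than 2 were called; others are stated as chosen after seeing values, or belong to the account of a partner gene. The fit was tested on simulated data. The labels call the arrays of a group biological replicates, and p-values measure the differences between these pools, not between single animals. The planned search of promoters was not run and no sequences were used here.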

Additional observations from a re-analysis of the deposited data

How the results depend on the processing

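An intensity trend, analysis of variance, a filter on dim probe sets and a replicate block change the error of a member's difference and not the difference itself. Under the other alternatives (1 array left out, weighted arrays, centred medians or a repeat of the quantile normalization) the differences of the 7 members stayed above 0, at 0.80 to 0.88 for UMOD and 0.00 to 0.10 for PAX8. UMOD at 0.80, with quantile normalization once more, was the 1 value that moved by more than the SD between replicates. Members called numbered 5, or 6 with an intensity trend or without the 30% dimmest probe sets. Over all probe sets, 1659 were called. With an intensity trend in eBayes the number was 3029 (1697 higher and 1332 lower), and 7 brush border enzymes were higher. Without the 30% dimmest probe sets 1092 were lower. With the replicate number as a block 689 were called (490 higher and 199 lower), with 2 brush border enzymes. Same-numbered arrays deviated together at r = -0.0151, 0.0238 and -0.0565, so the numbers do not pair the arrays. No DED array correlated best with the naive array of its own number, and of the naive arrays only replicate 2 did with its DED array. With 1 array left out, 822 to 1028 were called (558 to 684 higher, 264 to 344 lower), with 2 to 3 brush border enzymes. Of 962 values of other named genes, 78 lost and 19 gained the call, and 4, of AQP1 and CLCN5, both near 0 and not called, changed sign. A block or 5 arrays leaves fewer residual degrees of freedom, and the cause of these changes was not tested. With 3 arrays a group, small differences such as that of PAX8 are not settled.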
